A study of Mus musculus with 36 samples.

Results

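The 9 genes described here encode the 3 peroxisome proliferator-activated receptors PPARα (Ppara), PPARδ (Ppard) and PPARγ (Pparg), their partner RXRα (Rxra), the coactivators PGC-1α (Ppargc1a) and PGC-1β (Ppargc1b), the corepressors NCoR1 (Ncor1) and RIP140 (Nrip1), and the liver transcription factor CREBH (Creb3l3). They were taken by symbol: every non-control probe whose gene name in the array files equals a listed symbol was a member probe, which gave 25 probes of 9 genes among 37325 named genes. Each of the 9 genes had at least 1 probe that passed the filter on dim signal, and 24 of the 25 probes did. The exception was the second Pparg probe (A_55_P2745190), which was not well above background on any of the 36 arrays.

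PPARs are nuclear receptors that bind fatty acids and their derivatives, pair with RXR and sit on DNA at direct repeats of a hexamer. PPARα is the main form in hepatocytes and drives the genes of fatty acid oxidation and ketone production when fatty acids arrive from adipose tissue. PPARγ is the fat cell form and is low in normal liver, and PPARδ is found in most tissues. PGC-1 proteins bind such receptors and raise transcription, whereas NCoR1 recruits a histone deacetylase complex and RIP140 acts mostly as a repressor. CREBH is a membrane-bound factor of hepatocytes that is released by proteolysis on fasting and acts with PPARα on Fgf21 and on lipoprotein genes.

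RNA was measured in livers of 36 male C57Bl/6J mice, 1 array each, in 6 groups of 6. Mice called AAKO lack ATGL, the triglyceride lipase encoded by Pnpla2 that starts fat release, in white adipose tissue, and CTRL are their controls; the labels give neither the Cre driver nor the alleles that the controls carry. Each genotype was studied fed ad libitum without treatment, fasted for 24 h, or fed and given the β3-adrenergic agonist CL316243, which stimulates adipocytes to release fatty acids, at 3 mg/kg by gavage at ZT10 in 0.5% carboxymethyl cellulose. All mice were killed at ZT16 under a cycle of 12 h light. The fed groups are labelled experiment 2 and the other 4 groups experiment 1, so that in every comparison with a fed group condition and experiment cannot be told apart; the labels give no gavage for the untreated groups. The genotype comparisons lie within 1 experiment each, and an experiment effect that is the same in both genotypes cancels in the interactions. The labels do not say whether AAKO and CTRL mice were littermates.

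Between 33128 and 37200 of 56605 probes were well above background on an array. All 10 hepatocyte markers were well above background on every array. Of 6 neutrophil markers 5 were higher in AAKO than in CTRL fasted livers, and the mean of their log2 levels spanned 0.33 to 2.88 in AAKO fasted livers against -2.20 to 2.44 in CTRL fasted livers. After CL316243, 6 of 8 Kupffer cell markers were lower than in fed livers in CTRL and 7 of 8 in AAKO, 6 of 7 and 3 of 7 endothelial markers were lower, and 3 of 6 stellate cell markers were lower in each genotype. Between genotypes, 2 of 7 endothelial markers were higher in AAKO when fasted and 3 of 7 after CL316243, with 0 lower. In fasted livers 2 of 6 stellate cell markers were higher in AAKO. These counts are of called genes, as defined below. Of all tested genes 49.3% were called between genotypes when fasted and 24.7% after CL316243. For CL316243 against fed livers the shares were 23.3% in CTRL and 31.4% in AAKO. The fasted endothelial and stellate cell counts between genotypes are both below the share of all genes. The neutrophil marker Ngp was not well above background on any array of fed CTRL, treated CTRL or treated AAKO livers. The part of these markers in the results below was not tested. In whole liver, fewer cells of a type and less RNA per cell cannot be told apart.

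Across the 9 genes, genotype differences were called in fasted and in CL316243-treated mice and none in fed mice. Levels are log2 signals relative to the array's 75th percentile, so that 0 is that percentile, and a difference of 1 is 2-fold. A gene was called when limma's two-sided p, adjusted by Benjamini-Hochberg over all 24251 tested genes, was under 0.05. In fed mice 0 of the 9 genes differed between AAKO and CTRL at that threshold, against 0.0783% of all tested genes, and 1, Ppard, had an unadjusted limma p under 0.05. In fasted mice 6 of 9 were called, 4 higher and 2 lower in AAKO, where 49.3% of all genes were called. After CL316243 5 of 9 were called, 1 higher and 4 lower in AAKO, where the background was 24.7%. Against fed CTRL livers, 4 genes were called in fasted CTRL livers (2 higher, 2 lower; background 43.3%) and 4 after CL316243 (3 higher, 1 lower; 23.3%). Against fed AAKO livers, 7 were called in fasted AAKO livers (4 higher, 3 lower; background 63.5%) and 6 after CL316243 (1 higher, 5 lower; 31.4%). The fasting comparisons call so many genes that a call by itself says little about these 9, and their sizes and directions are given gene by gene.

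**Figure D1:**
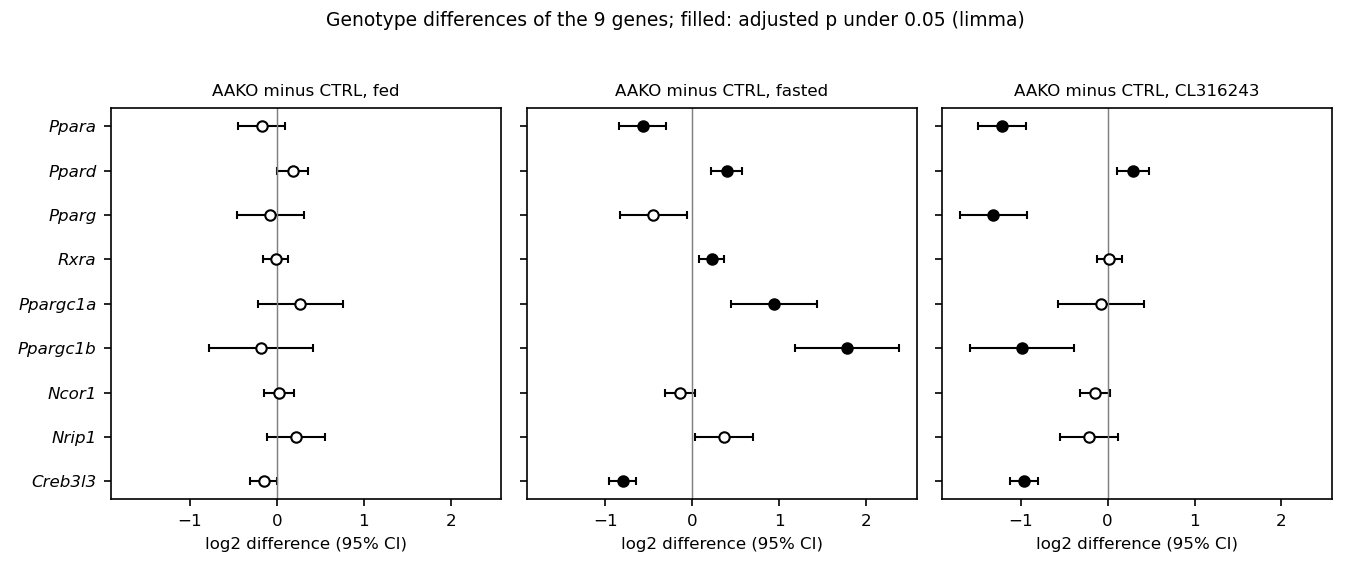
AAKO minus CTRL log2 difference (x axis) of each of the 9 genes (y axis) in fed, fasted and CL316243-treated mice, with 95% confidence intervals; filled points have an adjusted p under 0.05 (limma, 6 arrays a group). In the fed panel no point is filled, in the fasted panel Ppargc1b lies farthest to the right at 1.78 and Creb3l3 farthest to the left at -0.80, and in the CL316243 panel Pparg lies farthest to the left at -1.32.

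The start regions of 4 of the genes are shown because they hold the letters searched for: the PPAR and RXR element (DR1, AGGTCANAGGTCA, with up to 2 mismatches) and the core of the cAMP response element (TGACG), which is the element read by CREB-type factors. RefSeq windows on GRCm38.p6, from 250 bases before to 50 bases after a start, were at hand for 8 of the 9 genes, 14 windows in all. The 250 bases before the start are printed 5′ to 3′ on the gene's strand, with matches in capitals.
Creb3l3 (chr10:81092592-81092841, minus strand): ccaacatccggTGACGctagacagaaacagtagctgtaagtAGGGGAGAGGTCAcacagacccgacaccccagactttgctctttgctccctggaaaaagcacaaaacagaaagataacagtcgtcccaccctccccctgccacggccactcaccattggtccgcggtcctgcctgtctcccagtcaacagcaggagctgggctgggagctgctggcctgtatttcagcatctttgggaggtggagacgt
Ppara (chr15:85735526-85735775, plus strand): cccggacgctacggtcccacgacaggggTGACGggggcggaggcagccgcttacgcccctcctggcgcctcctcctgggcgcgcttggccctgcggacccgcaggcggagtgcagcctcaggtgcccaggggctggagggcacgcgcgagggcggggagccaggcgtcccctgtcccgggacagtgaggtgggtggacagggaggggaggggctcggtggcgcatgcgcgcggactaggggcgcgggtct
Ppargc1a (chr5:51567726-51567975, minus strand): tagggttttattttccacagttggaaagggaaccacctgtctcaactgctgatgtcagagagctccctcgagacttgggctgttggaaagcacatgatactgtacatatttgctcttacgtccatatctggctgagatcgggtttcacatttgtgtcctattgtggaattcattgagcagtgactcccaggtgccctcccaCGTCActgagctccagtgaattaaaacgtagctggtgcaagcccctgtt
Rxra, its second window (chr2:27709042-27709291, plus strand): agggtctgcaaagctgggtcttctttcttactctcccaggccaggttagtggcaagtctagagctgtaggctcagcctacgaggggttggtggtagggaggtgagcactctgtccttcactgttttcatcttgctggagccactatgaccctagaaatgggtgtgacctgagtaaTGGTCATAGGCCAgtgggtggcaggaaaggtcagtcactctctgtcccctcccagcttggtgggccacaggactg
The Creb3l3 window printed, its first, held both: the DR1 letters AGGGGAGAGGTCA at -209 to -197 from the start, with 2 mismatches, and TGACG at -239 to -235. The second Creb3l3 window and the first Rxra window, not printed, held neither. The Rxra window held TGGTCATAGGCCA at -75 to -63, also with 2 mismatches. Ppara held TGACG at -222 to -218, Ppargc1a held it on the opposite strand, read as CGTCA, at -49 to -45, and Ppard held it across its start (-4 to 1). Of 32851 mouse windows of 300 bases, searched on both strands, 3.86% held such a DR1 match, 0.0396% held DR1 with 0 mismatches, 20.8% held TGACG and 1.79% held the whole element TGACGTCA. A whole TGACGTCA includes TGACG, and neither it nor a DR1 with 0 mismatches was found in a window of these genes. These matches are letters in a window and say nothing on binding.

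Ppara, the fatty acid sensor of hepatocytes, was lower in AAKO than in CTRL liver in both stimulated states and was higher than in fed liver after CL316243 in CTRL but lower in AAKO. Its level in fed CTRL livers ran from 5.25 through a median of 5.59 to 5.83, and in fed AAKO livers from 5.26 through 5.36 to 5.54. After CL316243 it ran from 5.91 through 6.06 to 6.31 in CTRL and from 4.51 through 4.88 to 5.24 in AAKO. Every treated CTRL liver was above every fed CTRL liver, and every treated AAKO liver was below every fed AAKO liver and every treated CTRL liver. The genotype difference after CL316243 was -1.21 ± 0.13 (log2, SE; 2.32-fold; adjusted p = 5.3e-08). The treatment difference was 0.52 ± 0.13 in CTRL (adjusted p = 0.0042) and -0.52 ± 0.13 in AAKO (adjusted p = 0.0033). The test of the difference between these responses gave -1.04 ± 0.19 (adjusted p = 0.00031). The wash batches are a processing group of the arrays given by the labels. Each batch held 3 livers of a group, save treated AAKO with 4 in batch 1 and 2 in batch 2. Fits within a batch thus have less power, and a call lost there is not by itself a changed difference. Within the batches the genotype difference was -1.20 in batch 1 and -1.21 in batch 2, called in each. The interaction was -1.07 and -0.99 and was called in neither, at adjusted p = 0.079 and 0.069. The treatment differences were also not called within either batch (0.52 and 0.52 in CTRL, -0.54 and -0.47 in AAKO).

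Fasting went with a lower Ppara signal. Fasted CTRL livers ran from 4.80 through 5.17 to 5.46, and fasted AAKO livers from 4.32 through 4.49 to 4.94. Fasted AAKO livers lay below every fed AAKO liver and overlapped the fasted CTRL livers. The genotype difference in fasted mice was -0.57 ± 0.13 (adjusted p = 0.00063); within wash batch 1 it was -0.45 and not called (adjusted p = 0.12). Fasted minus fed was -0.79 ± 0.13 in AAKO (adjusted p = 5.3e-06) and -0.39 ± 0.13 in CTRL (adjusted p = 0.017). The CTRL value was not called without CTRL fasted replicate 2 (-0.33, adjusted p = 0.056), with quantile normalization (-0.27, adjusted p = 0.13), in the authors' deposited value table (-0.30, adjusted p = 0.079) or within either wash batch. The fasting responses of the genotypes differed by -0.39 ± 0.19 (adjusted p = 0.11), with a 95% interval from -0.78 to -0.01. In CTRL livers fasted minus CL316243, compared within experiment 1, was -0.92 ± 0.13 (adjusted p = 1.8e-06), with no overlap of the arrays. The genotype difference was less negative in fasted than in CL316243-treated mice, by 0.65 ± 0.19 (adjusted p = 0.0083), which was not called within either wash batch (0.76 and 0.51) or by the second probe (0.47, adjusted p = 0.083). The second Ppara probe followed the first (r = 0.99 over 36 arrays, a description) and gave genotype differences of -0.86 fasted and -1.33 after CL316243, with no overlap in either; by it the fasting responses differed by -0.69 ± 0.21 (adjusted p over all probes = 0.0096).

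**Figure D2:**
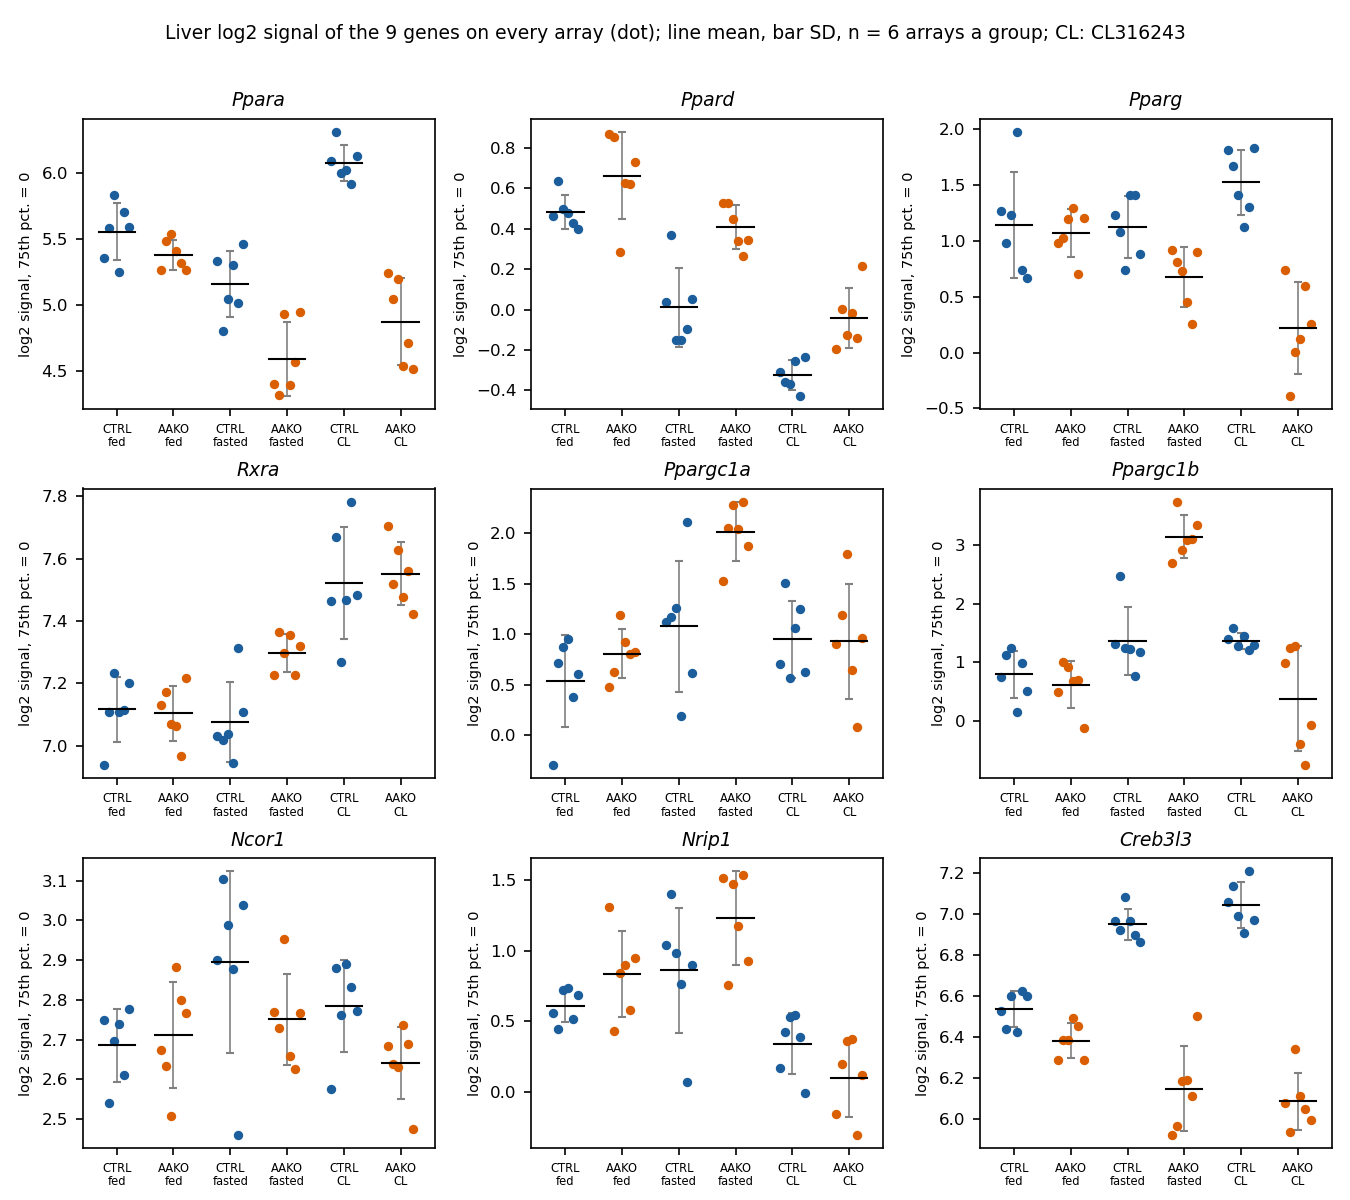
Log2 signal (y axis, 0 is the array's 75th percentile) of each of the 9 genes on every array, by group (x axis; CTRL blue, AAKO orange; CL is CL316243); dots are arrays, lines group means and bars SD, n = 6 arrays a group. Each panel has its own y range, and the Creb3l3 panel shows fasted and treated AAKO livers at 5.92 to 6.50, all below the fasted and treated CTRL livers at 6.86 to 7.21.

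Pparg, the adipogenic receptor, differed between genotypes after CL316243. The treated CTRL livers ran from 1.13 through 1.54 to 1.83 and the treated AAKO livers from -0.39 through 0.19 to 0.74. The groups did not overlap, and the difference was -1.32 ± 0.19 (2.49-fold; adjusted p = 4.6e-06; -1.06 within wash batch 1 and -1.62 within batch 2, called in each). Fed livers ran from 0.67 through 1.11 to 1.97 in CTRL and from 0.71 through 1.11 to 1.30 in AAKO. These ranges overlapped widely. Treated AAKO livers were lower than fed AAKO livers by -0.86 ± 0.19 (log2, adjusted p = 0.00077; -0.76 and not called within wash batch 1), with overlap, while treated minus fed CTRL was 0.38 ± 0.19 and not called (adjusted p = 0.15; 0.55, adjusted p = 0.027, without CTRL fed replicate 4, the highest fed liver). The responses differed by -1.24 ± 0.27 (adjusted p = 0.0021); within wash batch 1 this was -0.73 and not called (adjusted p = 0.41). In fasted livers Pparg ran from 0.74 through 1.16 to 1.41 in CTRL and from 0.26 through 0.77 to 0.92 in AAKO. That genotype difference of -0.45 ± 0.19 missed the threshold (adjusted p = 0.051). It was called with quantile normalization (-0.47, adjusted p = 0.039) and several other settings, and without CTRL fasted replicate 3 or 6 or AAKO fasted replicate 1 or 6 (-0.49 to -0.53). Pparg is also a gene of adipocytes. The mean log2 level of the adipocyte markers in treated livers spanned -4.85 to -3.88 in CTRL and -4.75 to -3.30 in AAKO. Of these 6 markers 0 were called between these groups, where 24.7% of all genes were called. Only 2 of the 6 were well above background on every array in each of these groups. The part of adipocyte RNA in the Pparg values was not tested.

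Ppard moved the other way from Ppara between the genotypes, by small amounts. In fasted livers it ran from -0.15 through -0.03 to 0.37 in CTRL and from 0.26 through 0.40 to 0.53 in AAKO. After CL316243 it ran from -0.43 through -0.34 to -0.23 in CTRL and from -0.20 through -0.07 to 0.22 in AAKO. AAKO was above CTRL by 0.40 ± 0.09 in fasted livers (adjusted p = 0.00032), with overlap, and by 0.29 ± 0.09 after CL316243 (adjusted p = 0.014), without overlap. Both lost the call in a wash batch on its own: the fasted difference was 0.29 in batch 2 (adjusted p = 0.076), and the treated one 0.32 in batch 1 (adjusted p = 0.081) and 0.23 in batch 2 (adjusted p = 0.33). Fed livers were the highest, from 0.40 through 0.47 to 0.64 in CTRL and from 0.28 through 0.68 to 0.87 in AAKO. Treated minus fed was -0.81 ± 0.09 in CTRL and -0.70 ± 0.09 in AAKO (adjusted p = 7.6e-08 and 3.2e-07), with no overlap in either genotype. Fasted minus fed was -0.47 ± 0.09 in CTRL (adjusted p = 4.5e-05) and -0.26 ± 0.09 in AAKO (adjusted p = 0.012; the call was lost in wash batch 1 alone, at -0.069, and in the authors' deposited table, at -0.16). Tests of whether the genotype difference varied with state gave 0.22 between fed and fasted mice, 0.11 between fed and treated mice and 0.11 between treated and fasted mice, none called (adjusted p = 0.18, 0.66 and 0.56); the first was called within wash batch 1 (0.53, adjusted p = 0.038) and without CTRL fasted replicate 2 (0.29, adjusted p = 0.049).

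Rxra, an RXR partner of the PPARs, was read by a pair of probes that did not move alike (r = 0.19 over 36 arrays). By the brighter probe (A_55_P2931478, mm9 chr2:27618345-27618404), CL316243-treated livers were above fed livers in both genotypes. Fed livers ran from 6.94 through 7.11 to 7.23 in CTRL and from 6.97 through 7.10 to 7.22 in AAKO, and treated livers from 7.27 through 7.48 to 7.78 in CTRL and from 7.42 through 7.54 to 7.70 in AAKO. No treated liver overlapped a fed liver of its genotype, and the differences were 0.41 ± 0.07 and 0.44 ± 0.07 (adjusted p = 7.1e-05 and 1.3e-05; the CTRL value was 0.32 and not called within wash batch 2). The genotypes differed in fasted mice by 0.22 ± 0.07 (adjusted p = 0.0087; 0.17 and not called within wash batch 1). The other probe (A_51_P307370, chr2:27615316-27615375) gave a different picture: fasted AAKO livers ran from -0.26 through 0.11 to 0.18 against -0.97 through -0.63 to -0.58 in fasted CTRL livers. By that probe the fasted genotype difference was 0.71 ± 0.09 (adjusted p over all probes = 6.4e-08), without overlap. Treated minus fed was 0.07 in CTRL and 0.17 in AAKO there and was not called (adjusted p = 0.63 and 0.15). Fasted minus fed AAKO was 0.89 ± 0.09 by that probe (adjusted p = 1.8e-10) and 0.19 ± 0.07 by the brighter probe (adjusted p = 0.016; lost within wash batch 2, 0.095, adjusted p = 0.41, and without AAKO fed replicate 5, 0.16, adjusted p = 0.054). The fasting responses of the genotypes differed by 0.77 ± 0.12 by the dimmer probe (adjusted p = 1.5e-05) and by 0.24 ± 0.10 by the brighter (adjusted p = 0.065; called with normexp, 0.27, median scaling, 0.30, quantile normalization, 0.27, the authors' deposited table, 0.30, slide as a factor, 0.26, the mean of both probes, 0.50, and without CTRL fasted replicate 5, AAKO fed replicate 6 or CTRL fed replicate 1). Both Rxra probes thus called the higher signal of AAKO in fasted livers, and the brighter alone called the higher signal after CL316243.

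The coactivator Ppargc1b showed the largest differences of the 9 genes, with opposite genotype differences in fasted and treated mice. Fasted CTRL livers ran from 0.76 through 1.23 to 2.46 and fasted AAKO livers from 2.69 through 3.09 to 3.74. Every fasted AAKO liver was above every fasted CTRL liver, by 1.78 ± 0.29 on average (log2; 3.43-fold; adjusted p = 6.8e-06; 2.27 within wash batch 1 and 1.29 within batch 2, called in each). CTRL fasted replicate 2, at 2.46, stood apart from the other CTRL fasted livers, the next of which was at 1.32. Fed livers ran from 0.16 through 0.87 to 1.24 in CTRL and from -0.11 through 0.69 to 1.01 in AAKO. Fasted minus fed was 2.53 ± 0.29 in AAKO (5.76-fold; adjusted p = 5.8e-09), with no overlap, and 0.57 ± 0.29 in CTRL, which was not called (adjusted p = 0.12; 0.34 without CTRL fasted replicate 2, and 0.22 and 0.92 within the wash batches). The fasting responses differed by 1.96 ± 0.41 (adjusted p = 0.0004); within wash batch 2 this was 1.58 and not called (adjusted p = 0.087). In the same fasted AAKO livers 5 of 6 neutrophil markers were higher than in fasted CTRL livers (median 2.76), and their part in the Ppargc1b values was not tested.

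After CL316243 the Ppargc1b order was turned. Treated CTRL livers ran closely from 1.21 through 1.34 to 1.58, and treated AAKO livers widely from -0.75 through 0.46 to 1.27. The difference was -0.99 ± 0.30 (adjusted p = 0.013). Its call was lost without AAKO CL316243 replicate 4 (-0.82, adjusted p = 0.052) or replicate 5 (-0.77, adjusted p = 0.051) and with only the groups compared in the fit (adjusted p = 0.077). The call was also lost within either wash batch (-1.06, adjusted p = 0.09, and -0.88, adjusted p = 0.29), of which batch 2 held 2 treated AAKO livers. Over replicates 1 to 6 the treated AAKO livers were at 0.99, 1.25, 1.27, -0.39, -0.75 and -0.07 for Ppargc1b. None of them reached the median of the treated CTRL livers. The genotype difference was larger in fasted than in treated mice by 2.77 ± 0.42 (adjusted p = 5.9e-06). The second Ppargc1b probe (r = 0.96 with the first) gave 1.03 in fasted mice, with overlap, and -1.11 after CL316243, both called.

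Ppargc1a, the better known fasting coactivator, was also highest in fasted AAKO livers. Fed livers ran from -0.30 through 0.66 to 0.95 in CTRL and from 0.48 through 0.81 to 1.19 in AAKO, and fasted livers from 0.18 through 1.14 to 2.11 in CTRL and from 1.53 through 2.05 to 2.31 in AAKO. The fasted AAKO livers were above all fed AAKO livers and above all but the highest of the fasted CTRL livers. The fasted genotype difference was 0.94 ± 0.24 (adjusted p = 0.0016; 0.74, adjusted p = 0.075, within wash batch 1 and 1.14, called, within batch 2). Fasted minus fed was 1.21 ± 0.24 in AAKO (adjusted p = 5.7e-05) and 0.54 ± 0.24 in CTRL (adjusted p = 0.071), and these responses differed by 0.67 ± 0.34 (adjusted p = 0.13). The CTRL value was called without CTRL fasted replicate 4 (0.69, adjusted p = 0.021) or replicate 6 (0.67, adjusted p = 0.03), in the authors' deposited table (0.56, adjusted p = 0.04) and with slide as a factor (0.55, adjusted p = 0.036), and was 0.36 without CTRL fasted replicate 5. The difference of responses was called without CTRL fasted replicate 5 (0.85, adjusted p = 0.041) and with slide as a factor (0.88, adjusted p = 0.023). After CL316243 the levels ran from 0.57 through 0.88 to 1.51 in CTRL and from 0.08 through 0.93 to 1.79 in AAKO, a difference of -0.07 with a 95% interval from -0.57 to 0.42. The genotype difference was larger in fasted than in treated mice by 1.01 ± 0.34 (adjusted p = 0.022), a call lost without CTRL fasted replicate 4 (0.85, adjusted p = 0.054), with only the compared groups in the fit (1.00, adjusted p = 0.055) and within either wash batch. The second probe followed the first (r = 0.98) with a fasted genotype difference of 1.01.

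**Figure D3:**
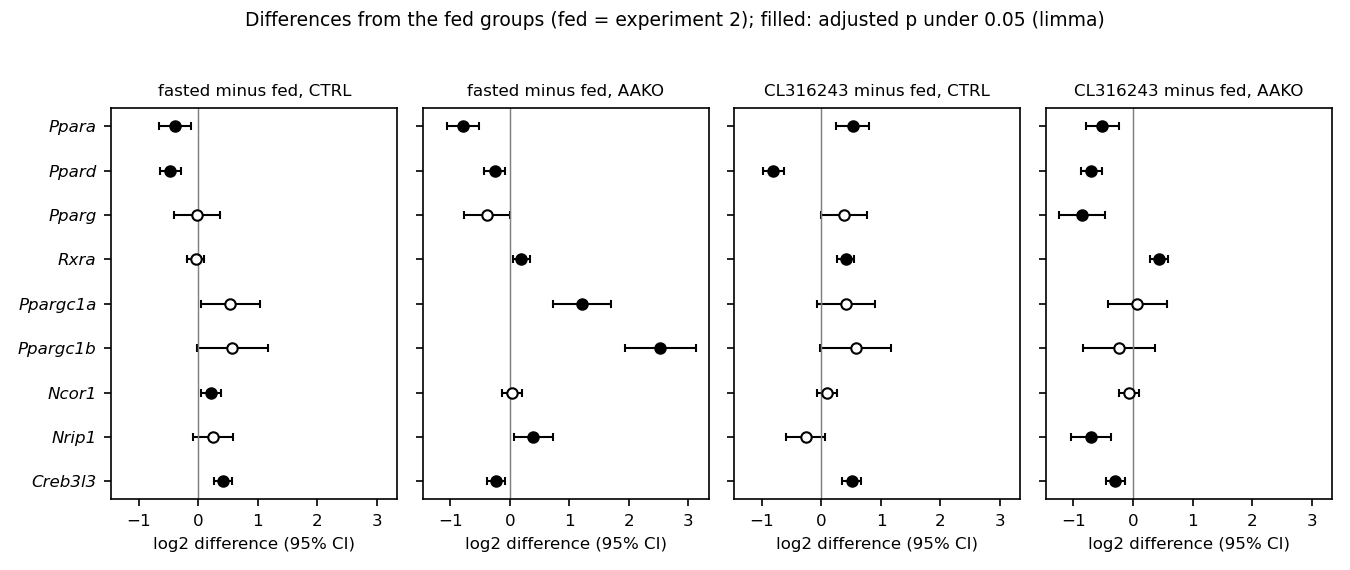
Log2 difference (x axis) from the fed group of the same genotype for each of the 9 genes (y axis) in fasted CTRL, fasted AAKO, CL316243-treated CTRL and CL316243-treated AAKO mice, with 95% confidence intervals; filled points have an adjusted p under 0.05 (limma). Fed groups are experiment 2. Ppara and Creb3l3 lie right of 0 in treated CTRL (0.52 and 0.51) and left of 0 in treated AAKO (-0.52 and -0.30), and Ppargc1b lies farthest right, at 2.53, in fasted AAKO.

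For the corepressor Nrip1, the 5 probes all gave positive fasted genotype differences, of unlike size. The probe that stands for the gene by signal (A_55_P2717747, mm9 chr16:76351861-76351920) gave a fasted genotype difference of 0.37 ± 0.16 that was not called (adjusted p = 0.061). It was called with normexp, median scaling, the authors' deposited table or the mean of the probes, and without AAKO fasted replicate 2 or 6 or CTRL fasted replicate 2 (0.42 to 0.46), and was 0.22 without CTRL fasted replicate 5. The probe annotated to the RefSeq transcript (A_51_P152747, chr16:76291555-76291614) ran in fasted livers from 0.19 through 0.69 to 1.54 in CTRL and from 1.56 through 1.78 to 2.16 in AAKO. Those groups did not overlap, and the difference was 1.04 ± 0.13 (2.06-fold; adjusted p over all probes = 1.3e-07). Of the 5 probes, 4 were called higher in AAKO fasted livers and 0 lower. By the RefSeq probe fasted minus fed was 0.83 ± 0.13 in CTRL and 1.70 ± 0.13 in AAKO (adjusted p = 6.8e-06 and 1.4e-12), responses that differed by 0.88 ± 0.19 (adjusted p = 0.00054). By the brightest probe fasted minus fed CTRL was 0.25 ± 0.16 (adjusted p = 0.23; 0.40, adjusted p = 0.035, without CTRL fasted replicate 5, and 0.16 without CTRL fasted replicate 2) and the responses differed by 0.15 ± 0.23 (adjusted p = 0.68). Of the 5 probes, 2 were called for each of these, so the fasting response in CTRL and its difference from AAKO depend on the probe. After CL316243 all 5 probes were called lower than in fed livers in AAKO, by -0.71 ± 0.17 for the brightest, (not called within wash batch 2, -0.53), and 0 of 5 in CTRL, where the brightest gave -0.27 ± 0.16 (adjusted p = 0.26). That difference between the genotypes' responses was not called for any of the 5 probes. By the brightest probe fasted minus fed AAKO was 0.39 ± 0.16 (adjusted p = 0.036), a call lost without AAKO fasted replicate 1, 3 or 5 or AAKO fed replicate 2 or 5 (0.29 to 0.36) and within either wash batch.

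For Ncor1, the scaffold of the HDAC3 corepressor complex, 8 probes along the gene did not move alike. By the brightest (A_66_P130142, mm9 chr11:62130536-62130595) all 36 livers lay between 2.46 and 3.10, the genotype differences were 0.03, -0.14 and -0.15 in fed, fasted and treated mice, and none was called, though the fasted one was without CTRL fasted replicate 5 (-0.24, adjusted p = 0.0061), within wash batch 2 (-0.28, adjusted p = 0.036) and with the mean of all 8 probes (-0.41, adjusted p = 7e-07). Its single call, fasted minus fed CTRL at 0.21 ± 0.08 (adjusted p = 0.041), was lost in many other settings, among them without any of CTRL fasted replicates 1, 2, 3, 4 or 6 or CTRL fed replicates 2, 3 or 5 (0.17 to 0.21), and CTRL fasted replicate 5, at 2.46, stood apart below the next at 2.88. Of the 8 probes, 5 were called lower in AAKO than in CTRL fasted livers and 0 higher. The probe A_52_P244895 (chr11:62215226-62215285) ran in fasted livers from -2.02 through -1.75 to -1.49 in CTRL and from -2.79 through -2.46 to -2.18 in AAKO, with fed CTRL livers from -3.09 through -2.88 to -2.65. Fasted CTRL livers overlapped neither of the others: the fasted genotype difference was -0.73 ± 0.11 (adjusted p over all probes = 2.9e-06) and fasted minus fed CTRL was 1.15 ± 0.11 (adjusted p = 1e-09). The responses of the genotypes to fasting differed by -0.90 ± 0.16 by this probe (adjusted p = 5.5e-05). In fasted minus fed AAKO, 1 probe was called higher and 4 lower, so the direction depends on the probe. Of the 4 lower ones, 2 (A_65_P07209 and A_65_P19917) are on the plus strand while the other 6 Ncor1 probes are on the minus strand; the files name them Ncor1, but whether they read its transcript was not tested, and they also enter the mean of the probes. Among the 6 minus-strand probes 4 were called lower and 0 higher in AAKO than in CTRL fasted livers, and 1 higher and 2 lower in fasted than in fed AAKO livers.

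**Figure D4:**
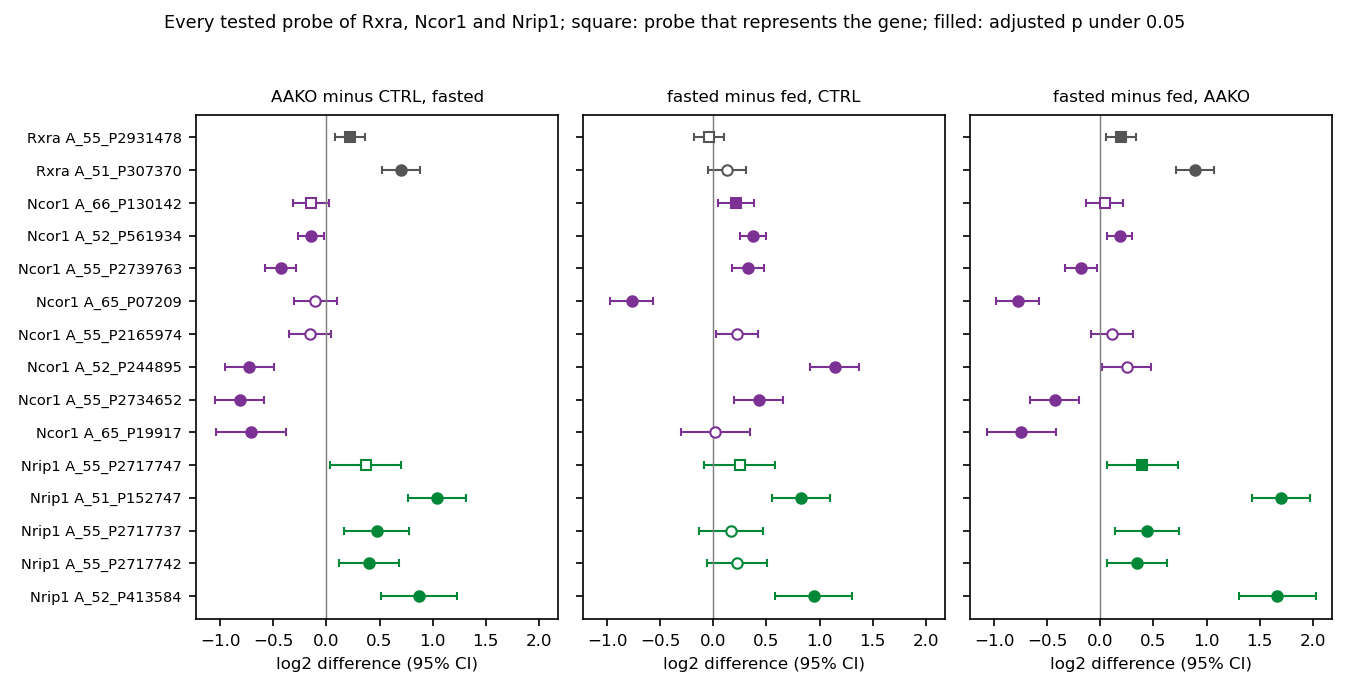
Log2 difference (x axis, 95% confidence intervals) of every tested probe of Rxra (grey), Ncor1 (purple) and Nrip1 (green), each on its own line, for AAKO minus CTRL in fasted mice and fasted minus fed in CTRL and AAKO; squares mark the probe that represents the gene and filled symbols an adjusted p under 0.05 over all probes. The Nrip1 probes lie right of 0 in all panels, and the Ncor1 probes lie on both sides of 0 in the fasting panels, from -0.77 to 1.15 in CTRL.

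Creb3l3 separated the genotypes without overlap in both fasted and CL316243-treated livers, with AAKO the lower. Its level ran in fed livers from 6.42 through 6.56 to 6.62 in CTRL and from 6.29 through 6.39 to 6.49 in AAKO. In fasted livers it ran from 6.86 through 6.94 to 7.08 in CTRL and from 5.92 through 6.15 to 6.50 in AAKO, and after CL316243 from 6.91 through 7.03 to 7.21 in CTRL and from 5.94 through 6.07 to 6.34 in AAKO. All fasted or treated CTRL livers lay above all fed livers, and all fasted or treated AAKO livers lay below all fasted or treated CTRL livers. AAKO minus CTRL was -0.80 ± 0.08 in fasted mice (adjusted p = 5.0e-10) and -0.96 ± 0.08 after CL316243 (adjusted p = 2.6e-10). Within the wash batches these were -0.73 and -0.87 in fasted mice and -1.07 and -0.78 after CL316243, called in each. In fed mice the difference was -0.15 ± 0.08 (adjusted p = 0.74).

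In CTRL livers Creb3l3 was above fed by 0.41 ± 0.08 in fasted mice and by 0.51 ± 0.08 after CL316243 (adjusted p = 5.3e-05 and 1.4e-05). In AAKO livers it was below fed by -0.24 ± 0.08 and -0.30 ± 0.08 (log2; adjusted p = 0.0089 and 0.0036), with overlap. The AAKO fasting value was -0.07 with quantile normalization and -0.05 in the authors' deposited table, and was called in neither, nor within wash batch 1; the AAKO treatment value was -0.09 and not called within wash batch 2. The opposite responses of the genotypes were called as interactions, of which the fasting one was -0.65 ± 0.11 (adjusted p = 2.6e-05) and the CL316243 one -0.81 ± 0.11 (adjusted p = 8.9e-06; within wash batch 2 -0.52, adjusted p = 0.064). Fasted minus CL316243 was -0.10 in CTRL and 0.06 in AAKO and was not called in either (95% intervals from -0.25 to 0.06 and from -0.10 to 0.22). In the authors' deposited table the AAKO value was 0.25 and called (adjusted p = 0.0032).

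Set against CL316243 within experiment 1, 4 of the 9 genes were called in CTRL fasted livers (Ppard and Nrip1 higher, Ppara and Rxra lower; background 36.8%) and 6 in AAKO fasted livers (5 higher, 1 lower; background 59.9%). In AAKO the higher ones were Ppard, Pparg, Ppargc1a, Ppargc1b and Nrip1, from 0.44 for Ppard to 2.76 for Ppargc1b, and the lower one was Rxra at -0.24. In CTRL, Nrip1 (0.52) was 0.20 and not called within wash batch 1 (adjusted p = 0.60) and not called with only the compared groups in the fit (adjusted p = 0.062), and Ppard (0.34) was not called within wash batch 1 (0.28, adjusted p = 0.12). The AAKO Pparg value of 0.47 ± 0.19 (adjusted p = 0.035) lost its call when any of 7 arrays was left out and within either wash batch. The AAKO Rxra value was 0.24, higher, with the mean of both probes. The AAKO Ppargc1a value, 1.14, was 0.74 and not called within wash batch 2 (adjusted p = 0.12). By the interaction tests, the genotype difference varied between fasted and fed for 2 of 9 genes (background 33.9%), between CL316243 and fed for 3 of 9, all more negative after CL316243 (background 10.9%), and between fasted and CL316243 for 4 of 9, all more positive in fasted mice (background 32.3%). Those 4 were Ppara, Pparg, Ppargc1a and Ppargc1b. The Pparg value was 0.87, and it was also 0.87 but not called within wash batch 1 (adjusted p = 0.15).

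The known targets of PPARα were lower in AAKO in fasted and in treated mice, as Ppara and Creb3l3 were. Of 43 tested PPARα targets, 38 were lower and 2 higher in AAKO than in CTRL fasted livers (median -1.45, against -0.04 over all tested genes), and 38 were lower and 0 higher after CL316243 (median -0.82, against 0.03). In fed livers 1 was lower, Vnn1, the pantetheinase gene, by -1.35 ± 0.24 (log2). Fgf21, the fasting hormone of the liver, was -5.48 ± 0.59 in fasted and -4.58 ± 0.59 in treated mice, and Vnn1 was -4.72 ± 0.24 and -2.47 ± 0.24. The Fgf21 signal was dim in AAKO livers, with a mean of -3.84 (SD 1.46) when fasted and -3.75 (SD 0.60) after CL316243. In CTRL livers these means were 1.64 and 0.79. Against that direction in fasted mice stood Mlycd, malonyl-CoA decarboxylase (0.50 ± 0.10), and Angptl4, an inhibitor of lipoprotein lipase (0.82 ± 0.23); after CL316243 Angptl4 was lower by -1.55 ± 0.24. Of the 43, 39 were higher in fasted than in fed CTRL livers (median 0.96). In AAKO 16 were higher and 18 lower (median -0.13), or 18 higher and 16 lower (median 0.02) with quantile normalization. The shares of all genes called between genotypes were 49.3% when fasted and 24.7% after CL316243. For fasted minus fed they were 43.3% in CTRL and 63.5% in AAKO.

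Of 13 tested CREBH targets, 8 were lower and 1 higher in AAKO fasted livers (median -0.58), and 5 were lower and 2 higher after CL316243 (median -0.25). Apoa4, an apolipoprotein of triglyceride-rich particles, was -3.50 ± 0.27 in fasted and -1.66 ± 0.27 in treated mice, and Bdh1, which interconverts ketone bodies, was -3.67 ± 0.25 and -1.15 ± 0.25. Hamp, the iron hormone hepcidin, was higher, by 0.69 ± 0.20 and 1.38 ± 0.20. Fgf21 and Cidec stand in both the PPARα and the CREBH list. Of 12 genes tied to PPARγ in fatty liver, 4 were lower and 2 higher in AAKO fasted livers and 2 were lower and 0 higher after CL316243, which is near and below the shares of all genes called, 49.3% and 24.7%. Fabp4, a fatty acid carrier of adipocytes and macrophages, was 0.94 ± 0.24 in fasted mice, and Cidec, a lipid droplet protein, -2.16 ± 0.41 in fasted and -2.71 ± 0.41 in treated mice. Against fed AAKO livers 8 of these 12 were higher and 0 lower in fasted AAKO livers (median 0.70, against -0.09 over all genes), a count near the 63.5% of all genes called.

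Genes responsive to PGC-1 did not follow Ppargc1a and Ppargc1b as a group. Of 18 tested, 5 were higher and 5 lower in AAKO than in CTRL fasted livers (median 0.03), where 49.3% of all genes were called. The called ones furthest apart were Acadm, medium-chain acyl-CoA dehydrogenase, at -1.65 ± 0.09 and Sod2, mitochondrial superoxide dismutase, at -0.60 ± 0.11, and on the other side Idh3a, a subunit of isocitrate dehydrogenase, at 1.25 ± 0.12 and Esrra, the receptor ERRα, at 0.89 ± 0.14. The gluconeogenic targets Pck1 (0.41 ± 0.18, adjusted p = 0.064) and G6pc (0.77 ± 0.39, adjusted p = 0.10) were not called. The lists share genes: Acadm also stands in the PPARα list and Esrra among the other nuclear receptors. Pck1 and G6pc also stand in the CREBH list, and Pck1 in the PPARγ list. Among 20 other coactivators, 10 were higher and 4 lower in AAKO fasted livers (median 0.17): Lpin1, a phosphatidate phosphatase that also acts with PGC-1α, was at 3.20 ± 0.48 and Pprc1, the third PGC-1 family gene, at 0.85 ± 0.19, with Kat2b, an acetyltransferase, at -0.90 ± 0.15. After CL316243, 4 of the 20 were higher and 6 lower, where 24.7% of all genes were called.

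Among 16 tested corepressor genes other than the members, 7 were higher and 4 lower in AAKO fasted livers, with Sap30 of the Sin3 complex at 1.04 ± 0.12, Hdac3, the deacetylase recruited by NCoR1, at -0.85 ± 0.07 and Lcor at -0.84 ± 0.10; after CL316243 1 was higher and 2 lower. The shares of all genes called were 49.3% and 24.7%, so the treated count was below the background. Of 32 other nuclear receptors, 11 were higher and 15 lower in AAKO fasted livers (median -0.20), and 4 were higher and 12 lower after CL316243 (median -0.30). Esrrg, the receptor ERRγ, was -1.24 ± 0.46 and -2.63 ± 0.46 in these states. Its signal was dim, with a mean of -5.95 (SD 1.45) in treated AAKO livers. With normexp its interaction of genotype with CL316243 against fed was -0.52 in place of -2.65, and was not called (adjusted p = 0.15). Rxrg, another RXR, was -1.65 ± 0.18 and -2.18 ± 0.18, and Nr1i3, the xenobiotic receptor CAR, -1.43 ± 0.15 and -1.66 ± 0.15. In fasted mice the oestrogen receptor gene Esr1 (2.37 ± 0.26) and the clock repressor gene Nr1d1 (2.17 ± 0.38) were higher in AAKO. In the CREB family and its processing proteases, 8 of 16 were higher and 1 lower in AAKO fasted livers and 9 were higher and 0 lower after CL316243, against 49.3% and 24.7% of all genes called; the fasted count is near that share. Crtc2, a CREB coactivator, was 0.87 ± 0.08 and 0.29 ± 0.08, and Creb3l2, a relative of CREBH, was -0.70 ± 0.18 in fasted and 0.84 ± 0.19 in treated mice.

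**Figure D5:**
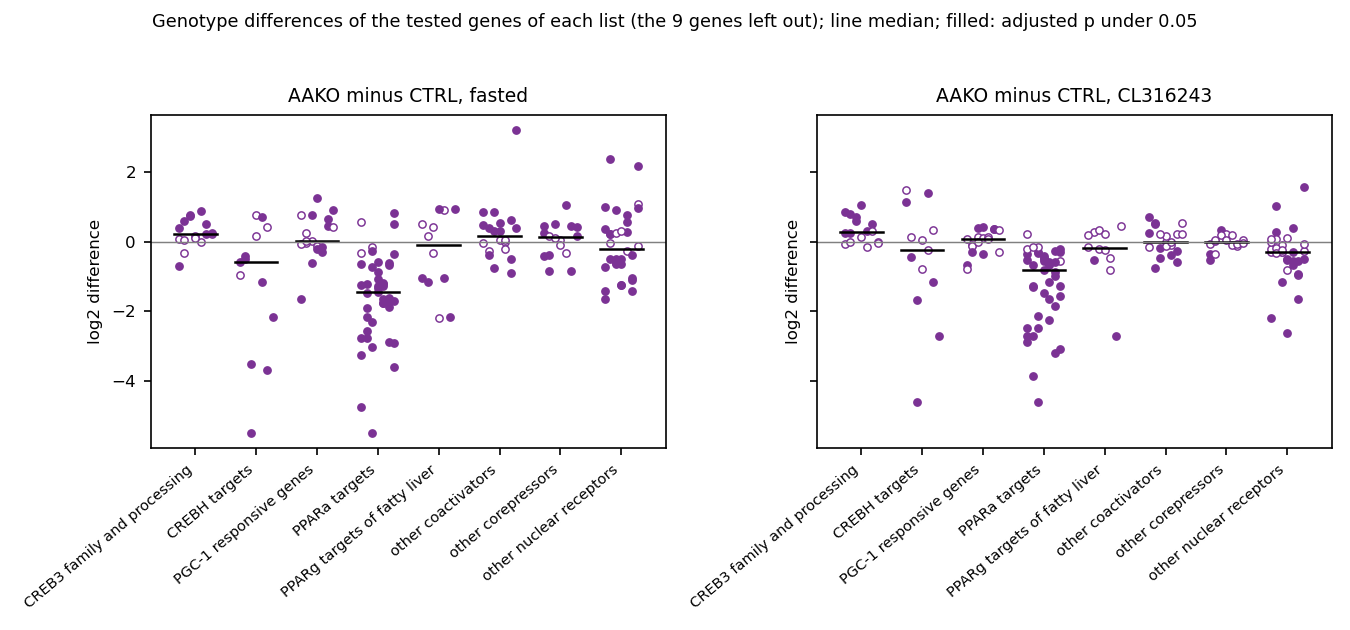
AAKO minus CTRL log2 difference (y axis) of each tested gene of 8 gene lists (x axis), the 9 genes left out, in fasted (left) and CL316243-treated mice (right); lines are list medians and filled dots have an adjusted p under 0.05. The PPARα targets have medians of -1.45 and -0.82, and the CREB3 family list medians of 0.21 and 0.27.

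The genes whose signal over the 36 arrays was most like each member were found by Pearson correlation. Once each group's mean was taken out, the correlations of the named genes ran from 0.059 (Ppard with Cry1) to 0.864 (Ncor1 with Ppm1b). Those of the 3 Ncor1 neighbours, at 0.864, 0.777 and 0.762, were about as high as over all arrays, and those of the other members were lower. For Creb3l3 they were Tlr5 (r = 0.94), Mtm1 (0.93) and the mitochondrial carnitine transferase gene Cpt2 (0.92), and for Ppargc1b Cbx2 (0.93), Bcl2l11 (0.92) and Resf1 (0.92). For Ppara they were Paqr7, Cdh2 and AW549542 (each r = 0.88), for Rxra Stat3 (0.87), Aspg (0.84) and Parp10 (0.84), and for Ppard Cry1 (0.85), Morc3 and Prodh (both 0.83). For Nrip1 they were 1700081N11Rik, Trabd2b (both 0.84) and Tnk2 (0.83), for Ppargc1a Pptc7 (0.83), Rtf1 and Zdhhc24 (both 0.82), for Ncor1 Ppm1b (0.79), Rab9 (0.79) and Pex13 (0.77), and for Pparg Fgd6 (0.74), Dnase1 (0.73) and Gclc (0.72). The values of 1700081N11Rik and Trabd2b depend on the background correction. With normexp their CL316243 minus fed differences in AAKO were -0.046 and -0.029, in place of -1.495 and -0.921, and were not called. Among the 9 genes themselves, Ppara and Creb3l3 gave r = 0.71 and r = 0.43 after each group's mean was taken out, and Ppargc1a and Ppargc1b gave 0.70 and 0.30. Pparg and Creb3l3 gave 0.64 and -0.11, so that their likeness lies between groups and not within them.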

How the data were processed

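Liver RNA of 36 mice was hybridised to 1-colour Agilent arrays. The deposited intensity values are processed signals which, per the file headers, the scanner software Agilent Feature Extraction wrote (version 10.10.1.1). The authors' deposited value table holds log2 values of 36898 probes, and the sources used here do not name its normalization. In each of the 6 groups its sorted values were the same on all arrays, as quantile normalization within a group leaves them. Such scaling can itself change group differences and their spread, so calls gained or lost in that table are not an independent check. The submitters' processing notes name limma. Outlier spots (0.127%) and controls were left out, no spot was saturated, and log2 processed signals were set against each array's 75th percentile. A gene was represented by its probe of highest mean signal and tested if that probe passed the scanner's well-above-background mark in 5 or more of the 6 arrays of any group (24251 of 37325 genes; 36550 of 56605 probes). limma 3.58.1 in R 4.3.3 fitted 6 group means and wash batch to all 36 arrays, with Benjamini-Hochberg adjustment at 0.05, two-sided, and was tested on simulated data.

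The labels do not say how the samples of a group were kept apart before extraction, so p-values measure the spread between these samples; the number of arrays, 6 a group, limits the precision. The 9 genes and all gene lists were chosen with earlier results of these data known. Genes named beside the 9 were taken from their 3 best correlated genes, the 2 called genes highest and the 2 lowest in each list for 3 comparisons, and a few known targets; not all of these are printed. Probe positions are the files' (mm9), and start regions are RefSeq's on GRCm38.p6; these builds were not mixed. Alternatives changed the background correction, scaling, source table, filter, choice of probe, samples fitted, batch or slide terms, the replicate block and single arrays left out.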

Additional observations from a re-analysis of the deposited data

Results flagged for a closer look

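In 2 of 54 groups of 6 livers a single liver stood apart by Dixon's criterion for the gap over the range, where chance gives about 1 in 20. For Ppargc1b, CTRL fasted replicate 2 was at 2.46 (gap over range 0.67), and the next liver was at 1.32. For Ncor1, CTRL fasted replicate 5 was at 2.46 (0.65), and the next was at 2.88.

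The genotype difference varied with state by limma's interaction test for 9 gene and state pairs. From fed to fasted it moved by 1.96 for Ppargc1b and by -0.65 for Creb3l3 (log2). From fed to CL316243 it moved by -1.04 for Ppara, -1.24 for Pparg and -0.81 for Creb3l3. Between CL316243 and fasted it was higher in fasted mice by 0.65 for Ppara, 0.87 for Pparg, 1.01 for Ppargc1a and 2.77 for Ppargc1b. These comparisons share groups of livers.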

How the results depend on the processing

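Of 51 called differences of the 9 genes, 21 were called in every setting and left-out array tried, single other probes not counted, and 1 changed sign, Rxra in fasted minus CL316243 AAKO (0.24 with the mean of its probes). The other Rxra probe gave 0.72 there and 0.057 in CTRL. In fed mice 0 genes were called between genotypes in any setting. The counts of called genes moved as follows. The interaction of genotype with fasted against CL316243 gave 7 in the authors' deposited table and 7 with the mean of probes; that with fasted against fed gave 5 with the mean of probes and 4 with slide as a factor. Within wash batch 1 the counts were 3 for genotype in fasted mice, 3 after CL316243, 2 and 4 for fasted minus fed in CTRL and AAKO, 2 for fasted minus CL316243 in CTRL, and 1 and 1 for the interactions of CL316243 with fed and with fasted. Within wash batch 2 they were 3 for genotype after CL316243, 2 for fasted minus fed CTRL, 3 for CL316243 minus fed AAKO, and 1 and 2 for those interactions. These fits hold fewer livers, 3 of a group save treated AAKO with 4 in batch 1 and 2 in batch 2. Leaving out single arrays gave 2 to 5 for the fasted against fed interaction (5 without CTRL fasted replicate 5) and 2 to 5 for fasted minus fed CTRL (2 without CTRL fasted replicate 2). Ncor1 changed sign with the probe: the mean of its probes gave -0.19 in fasted minus fed AAKO, -0.24 in fasted minus CL316243 AAKO and -0.27 in the interaction of genotype with fasted against CL316243. Singly, A_65_P07209 gave -0.77 and -0.78 for fasted minus fed in CTRL and AAKO and -0.69 and -0.93 for fasted minus CL316243. In AAKO these comparisons gave -0.18 and -0.18 for A_55_P2739763, -0.43 and -0.60 for A_55_P2734652, and -0.74 and -0.92 for A_65_P19917, and the fasted against CL316243 interaction -0.46 for A_55_P2734652, -0.67 for A_65_P19917 and -0.70 for A_52_P244895; the cause was not tested. The median over all tested genes in fasted minus fed AAKO was -0.09, and 0.01 in the authors' deposited table.

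With the replicate number as a replicate block, Pparg was called between genotypes in fasted mice (-0.45, adjusted p = 0.048 by limma) and Ncor1 was no longer called in fasted minus fed CTRL (0.21, adjusted p = 0.052); no other call changed. Same-numbered livers of different groups deviated together by a mean r of -0.001 over 90 pairs (-0.30 to 0.36). No pairing by number was thus visible in these deviations, which cannot show whether the numbers stand for a pairing in the design.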
